A study of Homo sapiens with 10 samples.

Results

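The genes described here are 32 genes of the endoplasmic reticulum (ER) that fold, degrade or move secretory proteins or that sense unfolded ones. They were listed by name, with earlier results of these data known, and they were looked up by gene symbol in 2 tables of RNA levels. One table covers Kasumi-1 and the other NB4, both human myeloid leukaemia cell lines, of which Kasumi-1 carries the RUNX1-RUNX1T1 fusion and NB4 the PML-RARA fusion. All 32 were found among 21944 genes of the NB4 table, and 17 were found among 10795 gene symbols of the Kasumi-1 table. The other 15, among them HSP90B1, PDIA3, HERPUD1, ERN1 and XBP1, were not analysed here in Kasumi-1.

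Each line was grown for 48 hours with 1 µM JOA or with a control, and the labels do not say what JOA or the control is. Kasumi-1 had 3 JOA and 3 control libraries, and NB4 had 2 JOA and 2 control libraries. For treated NB4, the source label gives I13 and the title and agent labels give JOA, and these libraries are called JOA here. No genotype, clone or vehicle is given for either line. The Kasumi-1 levels are in FPKM and the NB4 levels in TPM (both are read numbers scaled by transcript length and library size). The tables were scaled separately, so that only changes within a line are compared between lines.

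The column sums in Kasumi-1 were 265824 to 277629 FPKM, at relative depths of 91.4 to 100% of the deepest library, and the depth of the NB4 libraries is unknown. Of 14 myeloid marker genes, 8 were found in Kasumi-1, where they summed to 5590 to 6195 FPKM in JOA libraries and 5808 to 6441 FPKM in control libraries. In NB4 all 14 were found, and they summed to 5351 to 6748 TPM in JOA libraries and 8936 to 9058 TPM in control libraries. In NB4, control 2 was the highest of the 4 libraries for 20 of the 32 listed genes, against 18.0% of all genes tested, and JOA 2 was the lowest for 15 of them, against 20.2%. Control 2 was the lowest library for 6 of the listed genes, against 45.5% of all genes tested, so it stood apart over the whole table. Erythroid markers were near 0 in both lines, at no more than 0.155 FPKM and 0.637 TPM in any library.

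Other marker sums differed between the NB4 groups as well. The 7 epithelial and fibroblast markers summed to 53.8 to 55.4 TPM in JOA libraries, against 38.8 to 39.9 TPM in control libraries, mostly from KRT18 and EPCAM, with DCN, CDH1, COL1A1 and COL1A2 each under 1 TPM. Of 6 B and plasma cell markers, 5 were found, and they summed to 24.7 to 25.3 TPM with JOA, against 20.3 to 20.5 TPM in controls, mostly from CD79B, with JCHAIN at 0 in 3 of 4 libraries. The 5 T cell markers summed to 33.4 to 49.1 TPM with JOA, against 29.1 to 30.5 TPM in controls, nearly all from CD3D, with LCK at 0 in both JOA libraries. Mitochondrially encoded transcripts held 11.2 and 13.1% of TPM in JOA libraries, against 14.6 and 16.4% in control libraries. In Kasumi-1, where 1, 3 and 1 markers of these lists were found, only the T cell marker, CD8A, did not overlap, at 1.44 to 1.99 FPKM with JOA, against 2.13 to 2.77 FPKM in controls. The part of these differences, and of the lower myeloid sum, in the changes of the listed genes was not tested.

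Secretory and membrane proteins enter the ER through a translocon, and chaperones, lectins and disulfide isomerases fold them there. When unfolded proteins build up, the chaperone HSPA5 (BiP) leaves the stress sensors of the ER membrane, and the unfolded protein response sets in. ATF6 is then cut in the Golgi to release a transcription factor, IRE1 (the product of ERN1) splices the XBP1 mRNA to make another, and PERK slows translation. The first 2 of these arms raise the transcription of ER chaperones and of genes that carry misfolded proteins out for degradation.

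ATF6 is known to act through the ER stress response element (ERSE), which is CCAAT, 9 bases of any kind and CCACG. RefSeq promoters on GRCh38.p14, from 250 bases before to 50 after the start, were given for 29 of the 32 genes, and PDIA3, DERL1 and DERL3 had none. Searched on both strands, the element was found in 27 of 35116 promoters (0.0769%) and in 7 of the 29 genes: HSPA5, HSP90B1, CALR, CANX, PDIA6, CRELD2 and XBP1. The related element ERSE-II, which is ATTGG, 1 base of any kind and CCACG, was found in 19 promoters (0.0541%) and in 3 of the listed genes, HYOU1, SDF2L1 and HERPUD1. An 8-base XBP1 core motif, TGACGTGG, was found in 256 promoters (0.729%) and in HYOU1, where it overlaps one of its 2 ERSE-II matches, and in TXNDC5. The last 2 motifs were chosen after the first search. The promoter sequences below show where the element lies in the 3 ERSE genes with the largest log2 changes in NB4 and in both ERSE-II genes whose groups did not overlap there, on the strand of the gene and with the element in capitals; a match read on the other strand starts with CGTGG and ends with ATTGG or CCAAT. The promoter of HSPA5, at chr9:125241344-125241593 on the minus strand, is given up to its start, and the others as short windows.
HSPA5: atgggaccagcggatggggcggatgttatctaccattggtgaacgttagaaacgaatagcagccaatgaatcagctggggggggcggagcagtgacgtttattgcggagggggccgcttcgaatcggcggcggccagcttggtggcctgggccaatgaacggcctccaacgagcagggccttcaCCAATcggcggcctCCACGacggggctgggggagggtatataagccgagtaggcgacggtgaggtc
CALR, chr19:12938364-12938422, plus strand: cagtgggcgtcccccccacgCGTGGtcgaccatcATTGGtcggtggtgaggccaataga
CRELD2, chr22:49918534-49918592, plus strand: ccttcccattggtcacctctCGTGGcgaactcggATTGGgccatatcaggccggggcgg
SDF2L1, chr22:21642094-21642144, plus strand: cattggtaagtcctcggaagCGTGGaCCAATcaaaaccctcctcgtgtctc
HYOU1, chr11:119057254-119057304, minus strand: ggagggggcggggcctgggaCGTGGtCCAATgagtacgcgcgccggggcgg

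In the remaining genes with an ERSE, the element alone is shown, read in the direction that starts with CCAAT. In PDIA6 it lies 86 to 68 bases before the start, and in XBP1 52 to 34 bases before it.
PDIA6: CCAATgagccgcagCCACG
XBP1: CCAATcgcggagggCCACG
CANX: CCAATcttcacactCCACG
HSP90B1, upstream match: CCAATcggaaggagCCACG
HSP90B1, match nearer the start: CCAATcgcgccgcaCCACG

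Transcripts of several ER chaperones were lower with JOA: in all JOA libraries of both lines, HSPA5, SDF2L1, CALR, CANX and PDIA6 stood below every control library. Of all genes tested, 7.10% in Kasumi-1 and 11.0% in NB4 were lower without overlap, and the share in both lines was not counted. DNAJB9, DNAJB11 and DNAJC3 overlapped wherever they were measured, and HYOU1, P4HB and PDIA4 overlapped in Kasumi-1. In NB4, HSPA5, SDF2L1, CRELD2 and DERL3 were at 54.9 to 58.4% of the control mean, and CALR was at 59.2%. The changes in Kasumi-1 were smaller, with HSPA5 at 79.8%, SDF2L1 at 82.5%, CALR at 83.1% and PDIA6 at 85.2% of the control mean. Among genes of ER-associated degradation directions differed, and EDEM1 averaged 143% of the control mean in NB4, in part from transcripts with a retained intron, and 111% in Kasumi-1. How many of these differences passed a test depended on the fit, and is given for each.

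Both JOA libraries of NB4 lay below both controls for 17 of the 32 genes, against 11.0% of all 12932 genes tested, and above both for SEL1L and EDEM1, against 32.5% of all genes. In Kasumi-1 all 3 JOA libraries lay below all 3 controls for 6 of the 16 genes that passed the filter on low values (against 7.10% of 12101 tested) and above them for 0 (against 16.0%). Those 6 were HSPA5, SDF2L1, CALR, CANX, PDIA6 and SSR1. TXNDC5 did not pass the filter in Kasumi-1. The shares over all genes of Kasumi-1 include rows without a gene symbol, each counted as a gene. Because the list was chosen with earlier results of these data known, its counts beside those of all genes are not an independent test.

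With limma on log2(value + 1) and without pairing, 0 genes of 12101 passed an adjusted p of 0.05 in Kasumi-1, where the lowest adjusted p was 0.116 and 1982 genes, of which 566 were lower, had an unadjusted p under 0.05. In NB4, limma called 1 of 12932 genes (lower, 0.00773%), which is none of those listed. At an unadjusted p under 0.05, 6 listed genes were lower in Kasumi-1 (4.68% of all genes were) and 0 higher (11.7%), and in NB4 13 were lower (2.43%) and 1, EDEM1, higher (8.20%). Same-numbered Kasumi-1 libraries deviated together, so they were also compared as pairs. The share of all genes that moved the same way in 3 of 3 pairs was not counted. Paired, 736 genes (6.08%) rose and 249 (2.06%) fell, and of the listed genes CALR, HSPA5 and PDIA6 fell and 0 rose. With median-ratio scaling the paired split was 470 up (3.89%) and 486 down (4.02%), and CANX and SDF2L1 fell too. Leaving out any 1 of the 3 pairs ended the calls of CALR, HSPA5 and PDIA6. In NB4 a fit with the variance shared over both lines called 43 of 5761 genes up (0.746%) and 10 down (0.174%), among which CALR and SDF2L1 fell. That fit assumes the same spread in both lines, which was not tested. Pairing the NB4 libraries by number gave 99 genes up (0.766%) and 58 down (0.448%), and CALR fell.

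The median log2 change of the listed genes in NB4 was -0.18, against 0.09 over all genes tested, and 25 of 32 changes were negative (33.8% of all were). In Kasumi-1 it was -0.02, against 0.05 over all genes, and 8 of 16 were negative (38.1% of all were). Summed, the listed genes made up 0.452 and 0.427% of all TPM in JOA libraries of NB4, against 0.554 and 0.657% in control libraries. Their sum in Kasumi-1 was 2107, 2102 and 1968 FPKM in JOA libraries, against 2330, 2372 and 2367 FPKM in control libraries, and the groups did not overlap. CALR makes up a large part of both sums. On average it had 945 FPKM with JOA, against 1137 FPKM in controls, and in NB4 1286 against 2173 TPM. In bulk RNA, fewer cells with a transcript and less of it per cell cannot be told apart.

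**Figure D1:**
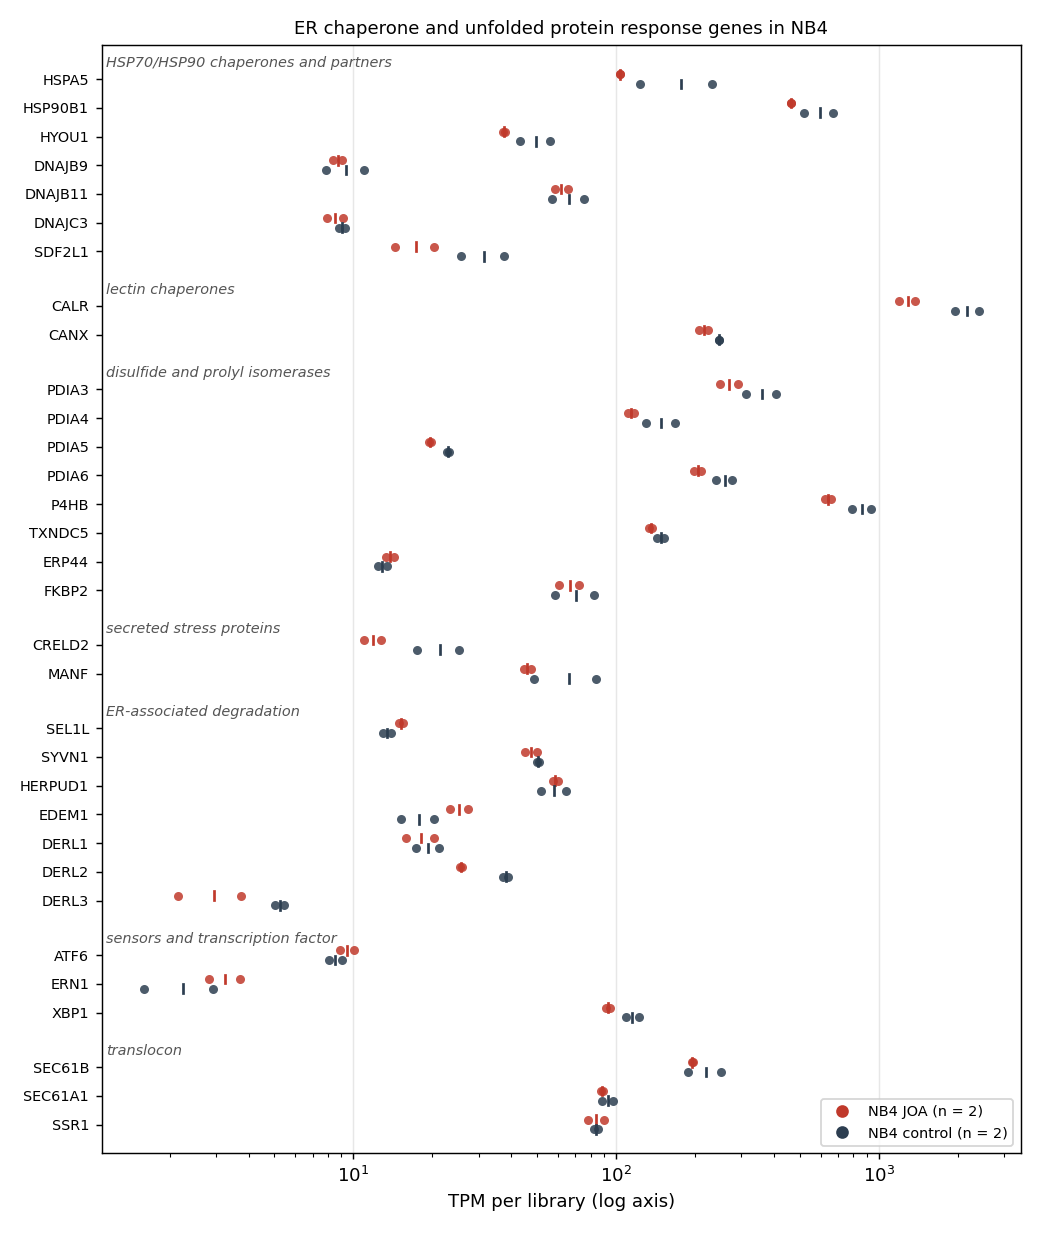
TPM of each of the 32 listed genes in the 2 JOA (red) and 2 control (dark) libraries of NB4, on a log axis, with a bar at each group's mean and genes grouped by role. CALR has the highest level and the JOA points lie left of both control points for 17 genes, while EDEM1 and SEL1L lie to the right.

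Calreticulin (CALR) and calnexin (CANX) are the lectin chaperones of the ER, which hold newly glycosylated proteins until they fold. CALR, at chromosome 19, 12938578 to 12944489, had the highest level of the listed genes in both lines. It had 1376 and 1197 TPM in JOA libraries of NB4, against 1947 and 2398 TPM in control libraries (1286 ± 126 against 2173 ± 319, SD, n = 2 each). In Kasumi-1 it had 961, 1012 and 861 FPKM with JOA, against 1133, 1161 and 1117 FPKM in controls (945 ± 76.7 against 1137 ± 22.3, SD, n = 3 each). No JOA library reached any control library of its line. The log2 change was -0.75 in NB4 (SE 0.14, limma adjusted p = 0.17) and -0.27 in Kasumi-1 (SE 0.09, adjusted p = 0.212). Paired, CALR fell in Kasumi-1 (adjusted p = 0.046), and it was lower in 3 of 3 pairs. In NB4 it fell when the variance was shared over both lines (SE 0.12, adjusted p = 0.0218), which assumes the same spread in both.

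CANX had 207 and 224 TPM in JOA libraries of NB4, against 246 and 246 TPM in control libraries. In Kasumi-1 it had 246, 222 and 224 FPKM with JOA, against 263, 255 and 254 FPKM in controls. The groups did not overlap in either line, but the distances were small. The log2 changes of -0.19 in NB4 (limma adjusted p = 0.523) and -0.16 in Kasumi-1 (paired adjusted p = 0.0701) did not pass the test.

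HSPA5, the HSP70 of the ER lumen and a common reporter of ER stress, lies at chromosome 9, 125234853 to 125241330. It had 103.5 and 103.5 TPM in JOA libraries of NB4, against 123 and 231 TPM in control libraries. The controls thus differed from each other more than the lower one did from the JOA libraries, and the log2 change of -0.70 (SE 0.25, limma adjusted p = 0.401) was -0.25 without control 2. In Kasumi-1 HSPA5 had 230.3, 218 and 236 FPKM with JOA, against 265, 276 and 317 FPKM in controls. It fell by 0.32 on the log2 scale when paired (SE 0.05, limma adjusted p = 0.0363), being lower in 3 of 3 pairs, and had an adjusted p of 0.157 unpaired.

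SDF2L1, a partner of HSPA5 and its J-domain cochaperones, had 20.2 and 14.4 TPM in JOA libraries of NB4, against 25.7 and 37.3 TPM in control libraries. It had 32.4, 35.2 and 38.2 FPKM in JOA libraries of Kasumi-1, against 44.2, 39.5 and 44.6 FPKM in control libraries. Groups did not overlap in either line. It fell in NB4 with the variance shared over both lines (log2 change -0.82, SE 0.17, limma adjusted p = 0.0465), and that call was lost with median-ratio scaling. Fitted in NB4 alone, the change had an SE of 0.22 and did not pass (limma adjusted p = 0.294). In Kasumi-1 the change of -0.27 had a paired adjusted p of 0.0563.

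HSP90B1 (GRP94), the HSP90 of the ER, had 465 and 464 TPM in JOA libraries of NB4, against 520 and 671 TPM in control libraries. HYOU1, an HSP70-like protein that exchanges nucleotide on HSPA5, had 37.8 and 37.1 TPM with JOA, against 43.0 and 56.0 TPM in controls. Their log2 changes of -0.35 and -0.38 did not pass the test (limma adjusted p = 0.429 and 0.432), and without control 2 they were -0.16 and -0.19. In Kasumi-1 HYOU1 overlapped, at 39.9 to 41.7 FPKM with JOA, against 40.8 to 45.3 FPKM in controls. The J-domain cochaperones DNAJB9, DNAJB11 and DNAJC3 overlapped in NB4, where their log2 changes were all -0.08 or -0.09. DNAJC3 overlapped in Kasumi-1 too, at 16.8 to 22.3 FPKM with JOA, against 16.4 to 21.3 FPKM in controls, although it was higher in 3 of 3 pairs.

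**Figure D2:**
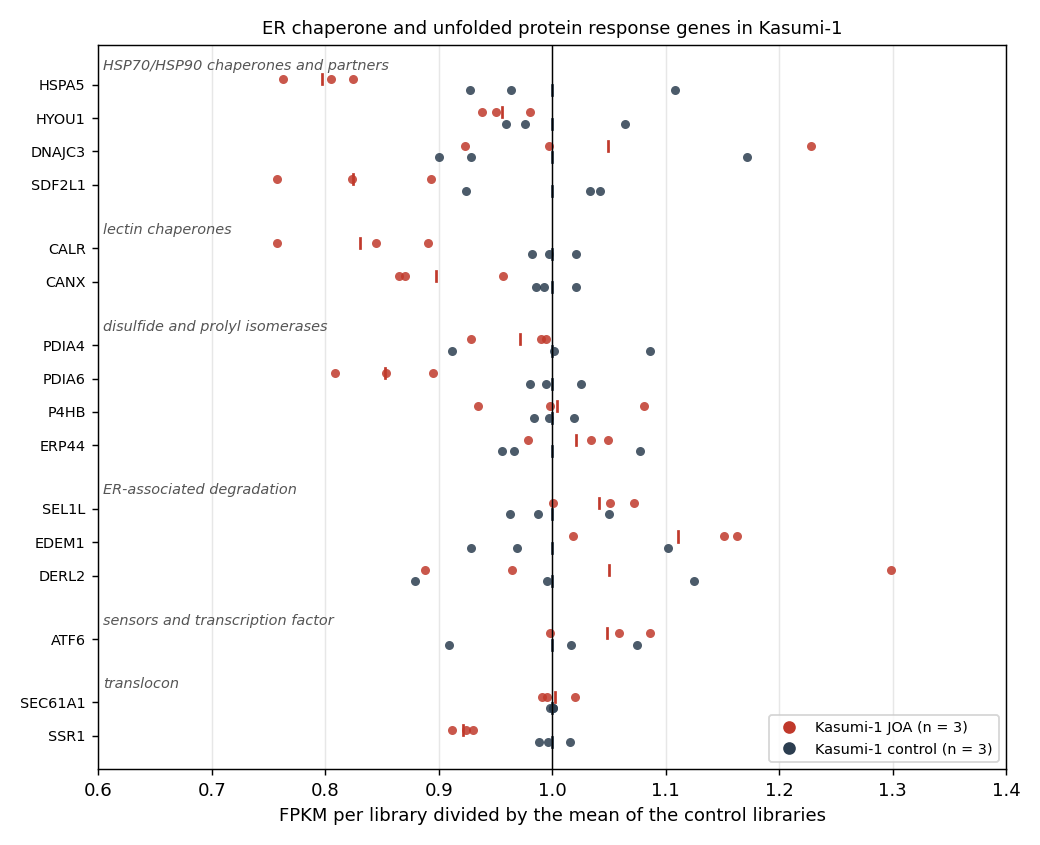
FPKM of 16 listed genes in the 3 JOA (red) and 3 control (dark) libraries of Kasumi-1, each divided by the gene's mean over control libraries, with a bar at each group's mean. All JOA points of HSPA5, SDF2L1, CALR, CANX, PDIA6 and SSR1 lie left of their control points, and the other 10 genes overlap; TXNDC5, near 0, is not drawn.

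Protein disulfide isomerases form and rearrange disulfide bonds. PDIA6 had 211 and 199 TPM in JOA libraries of NB4, against 241 and 277 TPM in control libraries. In Kasumi-1 it had 87.5, 83.5 and 79.1 FPKM with JOA, against 97.2, 100.3 and 95.9 FPKM in controls. It fell by 0.23 on the log2 scale in Kasumi-1 when paired (SE 0.04, limma adjusted p = 0.0396), in 3 of 3 pairs, and the log2 change in NB4 was -0.34 (SE 0.11, adjusted p = 0.36). PDIA6 was thus below all controls in both lines.

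P4HB, the classic protein disulfide isomerase and a subunit of prolyl 4-hydroxylase, had 659 and 623 TPM in JOA libraries of NB4, against 791 and 935 TPM in control libraries. In Kasumi-1 it had 243, 225 and 210.4 FPKM with JOA, against 229, 225 and 222 FPKM in controls, so that the JOA libraries spread around the controls. PDIA4 had 117 and 111 TPM in NB4 with JOA, against 130 and 168 TPM in controls, and it overlapped in Kasumi-1, at 80.8 to 86.5 FPKM with JOA, against 79.3 to 94.5 FPKM in controls. The log2 changes in NB4 were -0.42 for P4HB and -0.37 for PDIA4 (limma adjusted p = 0.294 and 0.412). PDIA5 had 19.8 and 19.4 TPM in NB4 with JOA, against 23.1 and 22.8 TPM in controls, and TXNDC5 had 134 and 137 TPM with JOA, against 143 and 153 TPM. Both were below their controls by little and did not pass the test.

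PDIA3 (ERp57), which works with calreticulin and calnexin, had 290.5 and 249.5 TPM in JOA libraries of NB4, against 407 and 313 TPM in control libraries. Most of it, 72.3% on average, was assigned to a transcript annotated as subject to nonsense-mediated decay, and 13.9% (median over libraries) to protein-coding transcripts. A short transcript, PDIA3-205, took 45.9 and 0 TPM with JOA, against 126 and 0 TPM in controls, and so sets part of the order of the libraries. ERP44, which retains proteins in the early secretory pathway, and FKBP2, a prolyl isomerase, overlapped between groups wherever they were measured. The 1 Kasumi-1 row matched to TXNDC5 had 1.45, 0.202 and 1.18 FPKM with JOA, against 0.0126, 0.195 and 0.248 FPKM in controls. Only 37.5% of Kasumi-1 rows could be given a symbol, so other records of the gene may be missed.

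CRELD2 and MANF are small ER proteins that are secreted under ER stress. CRELD2 had 12.8 and 10.9 TPM in JOA libraries of NB4, against 17.5 and 25.2 TPM in control libraries, and its log2 change was -0.78 (SE 0.20, limma adjusted p = 0.276). MANF had 47.4 and 44.6 TPM with JOA, against 48.7 and 84.0 TPM in controls. For MANF the separation rests on control 2, since its log2 change of -0.47 was -0.08 without that library.

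Among genes of ER-associated degradation, which takes misfolded proteins back to the cytosol, directions differed. EDEM1, a mannosidase-like protein that hands glycoproteins to this route, had 23.4 and 27.3 TPM in JOA libraries of NB4, against 20.3 and 15.3 TPM in control libraries. In Kasumi-1 it had 22.2, 19.6 and 22.4 FPKM with JOA, against 17.9, 18.7 and 21.2 FPKM in controls, with overlap but higher in 3 of 3 pairs. The log2 changes were 0.50 in NB4 (SE 0.17, limma adjusted p = 0.39) and 0.15 in Kasumi-1 (paired adjusted p = 0.163). Transcripts of EDEM1 with a retained intron held 7.13 and 8.09 TPM in JOA libraries of NB4, against 4.73 and 1.88 TPM in control libraries. With protein-coding transcripts only, the log2 change in NB4 was 0.28, and without control 2 it was 0.30. SEL1L, which carries the ubiquitin ligase SYVN1, had 14.9 and 15.4 TPM in NB4 with JOA, against 13.9 and 13.0 TPM in controls. In Kasumi-1 it was higher in 3 of 3 pairs with overlapping groups, in pair 2 only at 18.90 against 18.88 FPKM.

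DERL2, a derlin of the membrane channel for export, had 25.5 and 25.9 TPM in JOA libraries of NB4, against 38.9 and 37.0 TPM in control libraries, and the log2 change was -0.55 (SE 0.12, limma adjusted p = 0.213). Its TPM was spread over 13 transcripts, of which protein-coding ones held 35.7% (median over libraries). Protein-coding transcripts together had 8.70 and 9.20 TPM with JOA, against 13.9 and 15.5 TPM in controls. The longest of them, DERL2-201, went the other way, at 4.83 and 4.96 TPM with JOA, against 4.44 and 4.32 TPM in controls. In the 1 Kasumi-1 row matched to it, DERL2 overlapped at a low level, 2.12 to 3.09 FPKM with JOA, against 2.09 to 2.68 FPKM in controls. DERL3 had 3.75 and 2.16 TPM in NB4 with JOA, against 5.04 and 5.47 TPM in controls. DERL1, SYVN1 and HERPUD1, a stress-induced adaptor of SYVN1, overlapped in NB4, with log2 changes between -0.09 and 0.02.

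XBP1, the transcription factor whose mRNA IRE1 splices, had 94.9 and 91.2 TPM in JOA libraries of NB4, against 109 and 122 TPM in control libraries. The log2 change was -0.30 (SE 0.11, limma adjusted p = 0.394) and the groups did not overlap. Splicing by IRE1 removes 26 bases from the coding sequence and shifts its reading frame, which gives a protein of 376 in place of 261 codons. The removed bases of transcript XBP1-207 are shown in capitals, at chr22:28796104-28796169 on the minus strand (GRCh38), with the coding bases around them.
XBP1: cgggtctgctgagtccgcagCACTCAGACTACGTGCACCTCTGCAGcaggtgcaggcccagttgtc

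The spliced forms took 0 and 0.259 TPM in JOA libraries, against 0.282 and 0.755 TPM in control libraries, or 0 and 0.284% of XBP1 against 0.260 and 0.619%. The other annotated spliced transcript was listed at 0 in all 4 libraries. Nearly all XBP1 mRNA was thus assigned to unspliced forms in both groups, at values so low for the spliced form that no fold is given. ATF6 had 8.92 and 10.03 TPM in NB4 with JOA, against 9.04 and 8.08 TPM in controls, and 15.4, 16.7 and 16.3 FPKM in Kasumi-1 with JOA, against 15.6, 16.5 and 14.0 FPKM. ERN1 had 2.81 and 3.70 TPM in NB4 with JOA, against 2.92 and 1.59 TPM. Both sensors overlapped between groups.

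The translocon subunits SEC61A1 and SEC61B and the translocon-associated SSR1 had log2 changes between -0.16 and 0.00. SEC61A1 had 67.4, 65.5 and 65.8 FPKM in JOA libraries of Kasumi-1, against 66.2, 66.2 and 66.0 FPKM in control libraries, and 89.0 and 87.3 TPM in NB4 with JOA, against 88.8 and 97.4 TPM. SSR1 was lower in Kasumi-1, at 22.4, 22.9 and 22.7 FPKM with JOA, against 24.3, 24.99 and 24.5 FPKM in controls, with a paired adjusted p of 0.107, and it overlapped in NB4. SEC61B overlapped in NB4, at 196 and 194 TPM with JOA, against 188 and 251 TPM in controls.

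**Figure D3:**
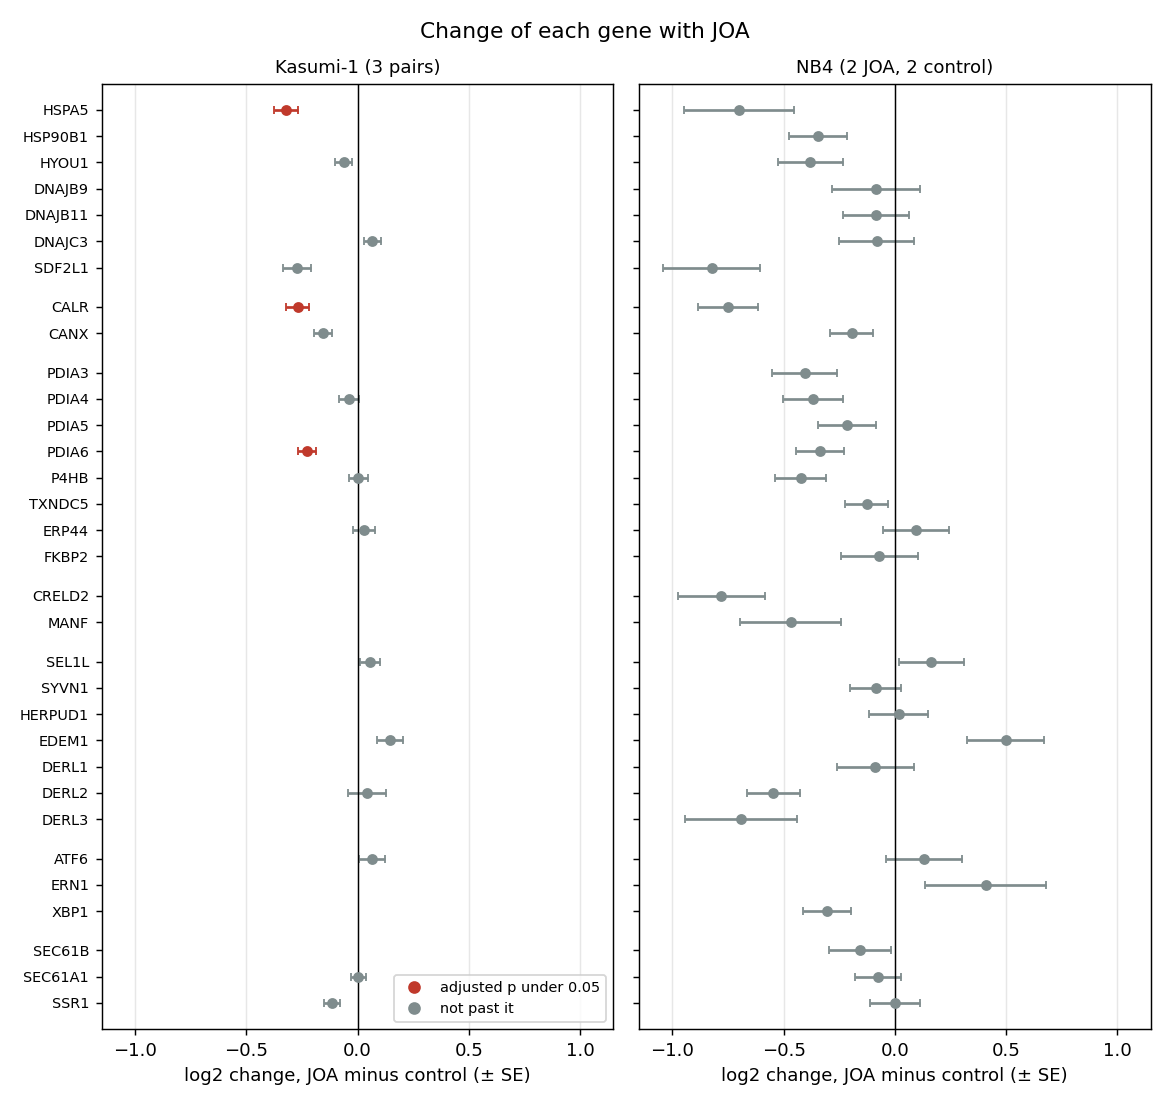
Log2 change (JOA minus control, on log2(value + 1)) of each listed gene with its standard error, from the paired limma fit in Kasumi-1 (left) and the unpaired fit in NB4 (right), in red where the adjusted p is under 0.05. CALR, HSPA5 and PDIA6 are red in Kasumi-1 and none is in NB4, where the error bars are wider; genes with no point were not tested.

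The 7 genes with an ERSE in their promoter were all lower with JOA without overlap in NB4, with log2 changes from -0.78 to -0.19 and a median of -0.35, against 11.0% of all genes lower without overlap. In Kasumi-1 the 4 of them that were tested, HSPA5, CALR, CANX and PDIA6, were likewise lower without overlap (7.10% of all genes were), with a median of -0.25. Of 3 genes with an ERSE-II match, HYOU1 and SDF2L1 were lower without overlap in NB4, and HERPUD1 overlapped. Of 19 listed genes with a given promoter and no such match, 6 were lower and 2 higher without overlap in NB4 (11.0% and 32.5% of all genes were), and their median was -0.08. In Kasumi-1 1 of 10 such genes, SSR1, was lower without overlap, and their median was 0.04. Among genes outside the list that hold an ERSE, 8 were tested in NB4, of which 1 was lower and 1 higher without overlap, with a median of -0.03. In Kasumi-1 all 4 tested overlapped, with a median of 0.06.

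Both lines were fitted together over 10 libraries to ask which genes moved on average with JOA and which moved differently. The p-values of this fit assume that each gene has the same spread in both lines. The fit held 5761 genes, of which 165 (2.86%) rose on average and 28 (0.486%) fell; with median-ratio scaling 43 (0.747%) rose and 41 (0.712%) fell. Of 16 listed genes, 3 fell and 0 rose under either scaling. CALR fell by 0.51 (SE 0.08, limma adjusted p = 0.0154), PDIA6 by 0.28 (SE 0.06, adjusted p = 0.0257) and SDF2L1 by 0.55 (SE 0.11, adjusted p = 0.0269), on the log2 scale. HSPA5, at -0.51 (SE 0.13, adjusted p = 0.0541), and EDEM1, at 0.32 (SE 0.09, adjusted p = 0.0647), missed the threshold narrowly. At an unadjusted p under 0.05, 9 were lower (4.39% of all genes) and 1 higher (18.9%). With the Kasumi-1 libraries paired, 5 fell (against 1.16% of all genes) and 1 rose (against 6.06%), since CANX (adjusted p = 0.0463), HSPA5 (0.0497) and EDEM1 (0.0478) were added. With both lines paired by number, 8 fell (2.41% of all genes did) and 1 rose (10.9%). Without NB4 JOA 2 none of the 3 genes called passed. Without Kasumi-1 control 1 or Kasumi-1 JOA 3 only CALR passed, and 0.278% and 0.399% of all genes did. Leaving out an NB4 control keeps 1 control library of that line. The median log2 change of the listed genes was -0.20 without NB4 control 1, against 0.09 over all genes. Without NB4 control 2 it was -0.12, against 0.045.

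The difference between the lines, Kasumi-1 minus NB4, passed the test for 0 of 16 listed genes and for 4 of 5761 genes (1 higher, 0.0174%, and 3 lower, 0.0521%). At an unadjusted p under 0.05, 6 listed genes differed, all with a positive difference: P4HB, DERL2, CALR, SDF2L1, HYOU1 and PDIA4 (3.61% of all genes differed that way, and 7.01% the other way). P4HB had a difference of 0.43 with a 95% interval of 0.16 to 0.70, and CALR one of 0.48 with an interval of 0.15 to 0.82 (limma adjusted p = 0.269 and 0.317). For PDIA6 the difference was 0.11 with an interval of -0.13 to 0.35, and for CANX 0.04 with an interval of -0.19 to 0.26, so that both intervals include 0 and also differences as large as the gene's own change. Leaving out NB4 control 1 keeps only control 2, which had 231 TPM of HSPA5, against 123 TPM in control 1. The median difference of the listed genes was 0.13 with both NB4 controls, against -0.053 over all genes. Without NB4 control 1 it was 0.2, against -0.092, and without NB4 control 2 it was 0.02, against -0.015.

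Control 2 of NB4 was the highest library for 20 of the 32 listed genes and the lowest for 45.5% of all genes tested. NB4 was therefore also fitted without control 2. Leaving out 1 of the other NB4 libraries gave 23 to 26 negative changes of 32 (32.1 to 35.9% over all genes), with medians from -0.25 to -0.18. Without control 2 the log2 change was negative for 23 of 32 genes (40.1% of all genes), with a median of -0.17. Of the 17 genes that were lower without overlap, 13 were then closer to 0, and 6 of these by more than 1.5 times: HSPA5, HSP90B1, HYOU1, PDIA4, TXNDC5 and MANF. PDIA4 was at -0.18 and TXNDC5 at -0.08. CANX (-0.19), PDIA3 (-0.59), PDIA5 (-0.22) and DERL2 (-0.58) were not closer to 0.

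The gene sums of NB4 were set beside their transcripts. The leading transcript of each gene was protein-coding for 28 of 32. Both JOA libraries lay below both controls for 18 of these leading transcripts, above them for 3 (EDEM1, SEL1L and ERN1) and among them for 11; over the leading transcripts of all 12932 genes tested, 10.5% lay below and 32.8% above. CALR-201 had 1287 and 1114 TPM with JOA, against 1806 and 2169 TPM in controls. HSPA5 has a single transcript in the table. The leading transcript of ERN1 is annotated with a retained intron, and HERPUD1 was spread over 19 transcripts.

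Other genes of the pathway were looked up in 8 lists of 142 genes in all. In NB4 limma called 0 of 137 tested genes, with 10 at an unadjusted p under 0.05, and the median log2 change was 0.01. In Kasumi-1 the paired fit called 5 up and 2 down of 90 tested genes, shares near those of all genes (6.08% up and 2.06% down), and the median was 0.01 there too. With median-ratio scaling it called 3 up (3.89% of all genes were) and 6 down (4.02%). The genes that rose were ATF6B, a relative of ATF6, CREB3L4, a membrane-bound factor of the same kind, EDEM2, CNPY3, which assists the folding of Toll-like receptors, and PPP1R15A (GADD34), which directs the dephosphorylation of eIF2α; CNPY3 and PPP1R15A lost their calls with median-ratio scaling (paired limma adjusted p = 0.0602 and 0.0676). SSR3, of the translocon-associated complex, and TMED10, a cargo receptor for transport to the Golgi, fell.

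ATF6B had 29.3 ± 1.10 FPKM in JOA libraries of Kasumi-1, against 23.7 ± 0.782 FPKM in control libraries (SD, n = 3 each), and 40.2 ± 11.5 TPM in NB4 with JOA, against 26.1 ± 1.75 TPM (SD, n = 2 each). CREB3L4 had 5.13 ± 0.310 FPKM in Kasumi-1 with JOA, against 3.70 ± 0.386 FPKM, and 9.01 ± 0.199 TPM in NB4 with JOA, against 6.11 ± 1.33 TPM. In each line both genes were higher with JOA without overlap (16.0% of all genes in Kasumi-1 and 32.5% in NB4 were). On average of the lines ATF6B rose by 0.44 (limma adjusted p = 0.0308) and CREB3L4 by 0.45 (adjusted p = 0.0273), and no other gene of the 89 tested passed. These 2 calls are no larger a share than the 2.86% of all genes that rose on average.

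Genes of the PERK arm had a median log2 change of 0.04 over 10 genes in Kasumi-1, of which PPP1R15A passed the paired test, though not with median-ratio scaling, where PSAT1 fell instead, and of -0.03 over 18 genes in NB4, of which 0 passed. ATF4, its transcription factor, had 140.1 ± 3.07 FPKM in Kasumi-1 with JOA, against 139 ± 7.31 FPKM in controls, and 499.7 ± 29.8 TPM in NB4 with JOA, against 463 ± 20.9 TPM. PPIB, an ER prolyl isomerase from the list of other folding factors, had 315 and 338 TPM in NB4 with JOA, against 417 and 516 TPM in controls (log2 change -0.51, limma adjusted p = 0.266). PRKCSH and GANAB, the subunits of the glucosidase that feeds the lectin chaperones, had log2 changes of -0.01 each in NB4.

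**Figure D4:**
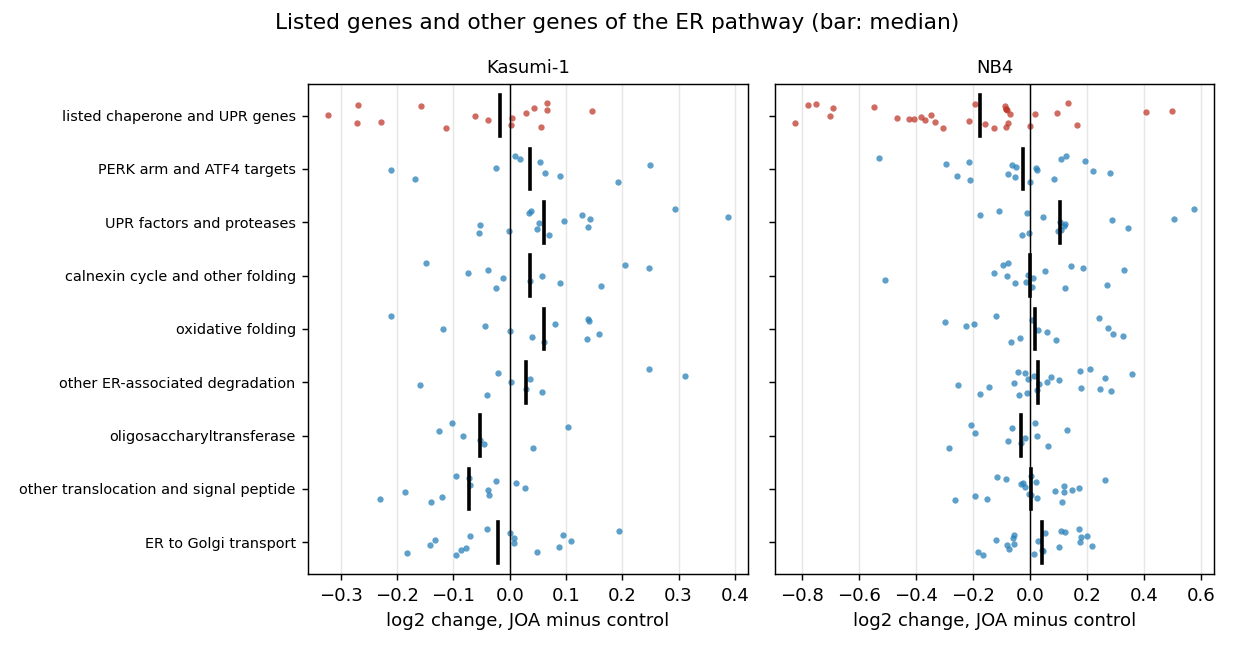
Log2 change (JOA minus control) of each tested gene in Kasumi-1 (left) and NB4 (right), for the listed genes (red) and 8 lists of other ER pathway genes (blue), with a black bar at each median; the 2 panels have different scales. The listed genes have a median of -0.02 in Kasumi-1 and -0.18 in NB4, and the medians of the other lists lie between -0.07 and 0.10.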

How the data were processed

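The authors deposited Kasumi-1 levels as FPKM, according to the file's name. Of its 29053 rows, 3 carry no sequence record and were left out of the fits. A gene symbol could be assigned to 10899 rows (37.5%, with 45.8% of the FPKM), 1634 of them with an identical record version. Rows with a record but no symbol were kept and counted as genes of their own in the fits of Kasumi-1 alone. NB4 transcript levels carry FPKM in the name of the file as well. The columns as deposited by the authors sum to 999679 to 999758, so these values were treated as TPM, a unit scaled to the same sum in each library, with the test as planned. GENCODE holds 93.9% of its 121005 transcripts, and these were summed to genes. Trimmomatic, HISAT2, Cufflinks, HTSeq and hg38 appear in the submitters' processing notes, without roles.

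Of 3215 low Kasumi-1 rows, 3146 (97.9%) were whole multiples of 1 read (within 0.02 of a read), which gives the relative depth. Lines were fitted with limma 3.58.1 (R 4.3.3, Python 3.11.15) on log2(value + 1), which understates changes of low genes. A variance trend was used, genes needed a value of 1 in 3 Kasumi-1 or 2 NB4 libraries, and p-values were adjusted (Benjamini-Hochberg) over all genes tested. The fits were tested on simulated data. All 32 genes could be named; other genes were named if called, or from the 3 highest per list. The genes and lists were chosen with earlier results of these data known.

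Whether replicate numbers pair libraries was judged from the deviations of each library from its group mean. In Kasumi-1 these correlated at 0.33, 0.50 and 0.42 between libraries of equal number, and at most at -0.06 otherwise, which was taken as pairing, although no label states it. In NB4 the correlation was 0.07, with 2 pairs. No label says that replicates come from separate cultures. The p-values therefore cover the spread among these libraries alone, and that spread may be technical.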

Additional observations from a re-analysis of the deposited data

How the results depend on the processing

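With 2 or 3 libraries per group, small changes are limited by the number of libraries, and the depth of NB4 is unknown. Under the alternatives tried, the number of listed genes past the test moved as follows. In Kasumi-1, 0 passed unpaired in every alternative without the replicate block; with the block 3 passed, also with only the highest row of a gene (3) or a pseudocount of 0.1 (3), and 5 with the block and median-ratio scaling. In NB4, 0 passed; the block (2 pairs that did not deviate together) gave 1, CALR, and shared variance gave 2, or 1 with median-ratio scaling. On average of the lines 3 passed; 9 did with the block in both lines, 6 with the block in Kasumi-1 only, 6 with that and median-ratio scaling, and 0 to 8 when a library was left out. SDF2L1 lost its call without a filter on low values (adjusted p = 0.0612). For the difference between lines it was 0 to 1 when a library was left out. The replicate block changed no other call. The cause of these shifts was not tested.

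Genes near 0 changed sign. With median-ratio scaling, with or without the block, P4HB in Kasumi-1 was at -0.048, ERP44 at -0.02 and SEC61A1 at -0.048; with it, HERPUD1 in NB4 was at -0.079, SSR1 at -0.10, and ERP44 on average of the lines at -0.008. With protein-coding transcripts only, DNAJB9 was at 0.232 and HERPUD1 at -0.079. Leaving out a library gave ranges in Kasumi-1 of -0.047 to 0.179 for DNAJC3, -0.103 to 0.022 for PDIA4, -0.05 to 0.054 for P4HB, -0.0 to 0.081 for ERP44, -0.074 to 0.123 for DERL2 and -0.009 to 0.011 for SEC61A1. In NB4 they were -0.30 to 0.13 for DNAJB9, -0.28 to 0.11 for DNAJB11, -0.176 to 0.011 for DNAJC3, -0.31 to 0.17 for FKBP2, -0.14 to 0.18 for HERPUD1, -0.257 to 0.083 for DERL1, -0.364 to 0.048 for SEC61B and -0.10 to 0.10 for SSR1. On average of the lines DNAJC3 ranged from -0.065 to 0.048.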

Other observations

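Cytosolic heat shock proteins and their cochaperones, which fold proteins outside the ER, were also looked up. In the paired Kasumi-1 fit, HSP90AB1, its cochaperone STIP1 and the chaperonin subunits CCT5 and TCP1 fell and the cochaperone BAG3 rose, out of 13 tested genes with a median log2 change of -0.15 (2.06% of all genes fell and 6.08% rose). HSP90AB1 had 812 ± 56.5 FPKM in JOA libraries, against 994 ± 8.91 FPKM in control libraries (SD, n = 3 each). With median-ratio scaling 6 fell and 0 rose (4.02% and 3.89% of all genes did). In NB4 limma called 0 of 19, with 1 at an unadjusted p under 0.05 and a median of -0.04. HSPA8 had 2109 ± 260.2 TPM in NB4 JOA libraries, against 1793 ± 107 TPM in control libraries (SD, n = 2 each). It had 371 ± 48.0 FPKM in Kasumi-1 JOA libraries, against 419 ± 50.8 FPKM in control libraries.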
